A study of Mus musculus with 7 samples.

Results

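The interferon-inducible p200 genes of the mouse were followed through the cell classes of whole bone marrow. The members were the 7 symbols Ifi203, Ifi204, Ifi207, Ifi209, Ifi211, Mndal and Aim2, looked up by name among the 31053 genes of the count matrices, and all 7 were found once in every matrix. In the marrow the 7 genes fell into sets by cell class. Ifi203, Mndal, Ifi209 and Aim2 were present in myeloid and lymphoid classes. Ifi204, Ifi207 and Ifi211 had their highest medians in monocytes and macrophages and were near 0 in B lineage and T or NK cells. In HRO.7, HRO.8 and HRY.5, however, Ifi204 was higher in mature neutrophils than in monocytes. In monocytes, Ifi204, Ifi207 and Ifi209 passed the test between HRO and HRY samples with pool as a term, with folds towards HRO. In that direction 2.43% of all genes were called. The groups overlapped, and no member passed without sample HRO.10 or without the pool term. No member passed the test between HRO and WTO samples. In B lineage cells Ifi209 and Ifi203 were called lower in HRO than in WTO samples, beside 12.7% of all genes called in either direction. Most B lineage cells of HRO.7 and HRO.8 lay in a cluster of their own, and no member passed without WTO.4.

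The p200 proteins, also called PYHIN proteins, usually join a pyrin domain, which binds other proteins of the same fold, to a HIN domain, which binds DNA. Aim2 senses double-stranded DNA in the cytosol and recruits the adaptor Pycard and the protease Casp1 into an inflammasome, which matures interleukin-1 beta. Ifi204 has been linked in mouse cells to DNA sensing through the STING adaptor, whose gene is Tmem173, and the genes of the family are known as targets of type I and type II interferon, above all in myeloid cells.

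Marrow had been taken from spine, hips, femur and tibia, freed of red cells, marked with hashtag antibodies and sequenced as 3′ libraries. 20 hashtag samples could be told apart in 4 pools. Pool WBM_1 held both chronic samples (ids HRO.6 and HRO.5, TET2-mutated by the design text) together with HRY.4, WTO.3 and WTY.3. Pool WBM_2 held WTO.4, HR.AE and the HRO samples HRO.7, HRO.8 and HRO.9. HRO.10, HRY.5, HRY.6, WTY.4, WTY.5 and HR.7 lay in WBM_3, and HRO.11, HRO.12, WTO.5 and WTO.6 in WBM_4. The groups were thus chronic (n = 2), HRO (n = 6), HRY (n = 3), WTO (n = 4) and WTY (n = 3), with HR.7 and HR.AE as single samples. Apart from that TET2 label, what the prefixes mean, and the genotype, strain, treatment, age and sex of the mice, are not stated in the sources used here. Whether every hashtag stands for an animal of its own is not stated either, and the p-values therefore reflect variation among hashtag samples that could be technical.

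Libraries held 25343305 to 95553827 UMIs, and a hashtag sample 928 to 5530 kept cells. Libraries WBM_3a and WBM_3b shared 2078 barcodes, and the copies with fewer UMIs were removed. Several libraries and samples stood apart. In WBM_1 0.169% of cell barcodes began with AAACCT and none with AAACCC, whereas in the other libraries none began with AAACCT and 0.0576% to 0.126% with AAACCC. The part of this in any difference between WBM_1 and the other pools was not tested. In monocytes of WBM_1 the summed level of 7 neutrophil RNAs was 21240 to 46010 CPM (UMI counts scaled to the same total in every sample and class), against 1607 to 13760 CPM in the other pools, with no such gene at 0. Of the monocytes of HRO.7 and HRO.8, 98.7% and 98.8% lay in cluster 4, which is led by Iigp1, Gbp2, Gbp5, Cxcl9 and Saa3. Most monocytes of HRO.9, HRO.10, HRO.11 and HRO.12 lay in clusters 7 and 9, those of HRY, WTO and WTY outside WBM_1 mainly in clusters 7 and 13 (in WTO.5 and WTO.6 also in cluster 9), and those of WBM_1 in cluster 8. The Y-linked gene Ddx3y was above 50 CPM in monocytes of 1 of 6 HRO samples (HRO.9), 3 of 3 HRY samples, 3 of 4 WTO samples and 2 of 3 WTY samples, and under 1 CPM in the rest of these groups.

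The 7 members lie in 1 locus on chromosome 1, among other p200 genes, from 173350879 to 173942672 in the GENCODE annotation of GRCm38. Aim2 (ENSMUSG00000037860, 173350879 to 173466040) and Ifi209 (ENSMUSG00000043263, 173630917 to 173647928) are on the plus strand. Ifi207 (ENSMUSG00000073490, 173723427 to 173741747), Ifi204 (ENSMUSG00000073489, 173747293 to 173766943), Mndal (ENSMUSG00000090272, 173849126 to 173942491), Ifi211 (ENSMUSG00000026536, 173896345 to 173913046) and Ifi203 (ENSMUSG00000039997, 173920407 to 173942672) are on the minus strand. The annotated span of Mndal contains Ifi211 and nearly all of Ifi203 on the same strand. Exons of Mndal and Ifi203 overlap by 37 bases, so that counts of this pair cannot be told apart over those bases.

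The promoters are shown because 6 of the members moved together across monocyte samples, as described below. RefSeq promoter windows (GRCm38.p6, 250 bases before to 50 after a start) were at hand for 6 of the 7 members. The core of the interferon-stimulated response element, searched as GAAANNGAA on both strands, was found for 4 of those 6 genes (Ifi203, Ifi207, Ifi211 and Mndal), and for 5 of 6 other p200 genes (Ifi205, Ifi206, Ifi208, Ifi213 and Ifi214). It occurs for 9.76% of all 27025 genes of the table, and in 8.56% of all 32851 promoter windows. Of the member windows, 5 of 8 held it, and another window of Ifi203 held none. The gamma-activated site, searched as TTCNNNGAA, occurs in 8.30% of all windows and was found in no member window, and in 1 other p200 gene, Ifi202b. No window of these genes held both motifs. The windows of Ifi209 and Aim2 held neither run of letters. The stretches around the match nearest the start follow 5′ to 3′ on the minus strand, with the match in capitals.
Ifi203 (chr1:173942489-173942557, match at -35): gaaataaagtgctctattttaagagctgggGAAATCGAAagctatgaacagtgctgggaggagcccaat
Mndal (chr1:173880185-173880253, match at -36): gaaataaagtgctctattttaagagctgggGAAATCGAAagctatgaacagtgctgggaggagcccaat
Ifi207 (chr1:173741812-173741880, match at -41): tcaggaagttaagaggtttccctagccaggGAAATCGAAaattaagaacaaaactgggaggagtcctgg
Ifi211 (chr1:173913045-173913113, match at -37): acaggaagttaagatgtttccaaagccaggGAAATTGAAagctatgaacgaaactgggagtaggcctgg
Ifi213 (chr1:173599307-173599375, match at -73): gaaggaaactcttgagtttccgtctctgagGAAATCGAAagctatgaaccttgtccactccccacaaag

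The 69 bases of Ifi203 and Mndal were identical, and Ifi207 and Ifi211 shared 84.1% of theirs, against 59.4% between Ifi203 and Ifi207. Ifi213, a p200 gene outside the 7, shared 56.5% with Ifi203. Sequence likeness also limits the counts themselves. Of the words of read length (98 bases) in the last 500 bases of the annotated transcripts, 58.1% of those of Ifi211 occur unchanged in Ifi205 or Mndal, and 34.9% of those of Ifi209 occur in Ifi214. The share was 7.68% for Mndal and 0.644% for Ifi203, and no shared word was found for Ifi204, Ifi207 or Aim2. How reads that match several genes were counted is not given in the sources used here, so levels of Ifi211 and Ifi209 are the least certain of the 7.

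Levels across cell classes were compared first. Classes were named from marker genes of clusters that had been built without the p200 and interferon genes, and their levels are a description with no test. Values are CPM of the UMIs summed over the cells of a class in a hashtag sample, given as medians over samples in which the class had 20 cells or more. They are not divided by transcript length, so each gene is set against itself in other classes and not against another gene.

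Ifi203 was highest in conventional dendritic cells (344 CPM, 9 samples), T or NK cells (286 CPM, 18 samples) and plasmacytoid dendritic cells (227 CPM, 10 samples). It was 192 CPM in monocytes (19 samples) and 187 CPM in B lineage cells (16 samples), against 64.4 CPM in progenitors, 4.07 CPM in mature neutrophils and 1.55 CPM in immature neutrophils (19 samples each). Mndal, whose human relative MNDA is a nuclear antigen of myeloid cells, had the same order at the bottom, with 257.5 CPM in T or NK cells, 211.5 CPM in monocytes, 196 CPM in B lineage cells and 3.77 CPM in immature neutrophils. Neighbours in these orders were close. For Ifi203 the mean difference between a class and the next one exceeded its SD over shared samples in 1 of 12 steps, that between progenitors and basophils or mast cells (52.9 ± 29.0 CPM, SD, n = 6). For Mndal it did so in 2 of 12 steps, from basophils or mast cells to plasma cells and from mature to immature neutrophils.

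Ifi209 was highest in monocytes (147 CPM) and macrophages (128 CPM, 5 samples), followed by B lineage cells (109 CPM), conventional dendritic cells (81.9 CPM) and T or NK cells (79.2 CPM). Progenitors (7.07 CPM) and mature neutrophils (3.80 CPM) were far lower. Aim2 was the flattest of the 7. Its medians were 69.7 CPM in basophils or mast cells (7 samples), 64.9 CPM in conventional dendritic cells, 53.6 CPM in monocytes, 48.1 CPM in T or NK cells, 34.1 CPM in B lineage cells and 29.0 CPM in progenitors, and 1 of its 12 steps exceeded its SD.

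Ifi204, Ifi207 and Ifi211 had their highest medians in macrophages, which could be measured in HR.7 and 4 HRO samples alone. Over those 5 samples Ifi204 was higher in macrophages than in monocytes by 80.9 ± 73.6 CPM (SD), whereas for Ifi211 the difference of 4.17 ± 12.5 CPM was within its spread. Ifi204 was 238 CPM in macrophages, 151 CPM in monocytes, 141 CPM in nonclassical monocytes (7 samples) and 55.5 CPM in mature neutrophils, against 5.63 CPM in B lineage cells and 5.45 CPM in T or NK cells. Mature neutrophils thus held Ifi204 well above immature neutrophils, where it was 1.32 CPM. Ifi207 was 209 CPM in macrophages, 119 CPM in nonclassical monocytes, 104 CPM in monocytes and 67.7 CPM in conventional dendritic cells, and its median was 0 in T or NK cells and in B lineage cells. Its order had the clearest steps, with 4 of 12 larger than their SD, among them monocytes over conventional dendritic cells (38.8 ± 32.1 CPM, higher in 8 of 9 samples) and conventional over plasmacytoid dendritic cells (46.1 ± 32.9 CPM, higher in 9 of 9). Ifi211 was 69.7 CPM in macrophages, 63.3 CPM in monocytes and 53.0 CPM in conventional dendritic cells, against 2.02 CPM in B lineage cells and 0.430 CPM in immature neutrophils. Low values in droplet libraries can be free RNA, whose level was not measured here.

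**Figure D1:**
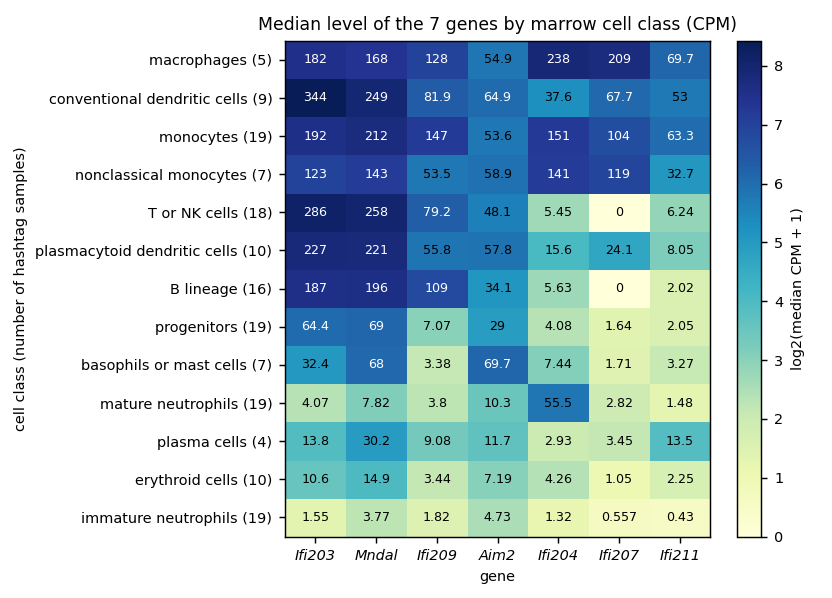
Median level of each gene (columns, CPM printed in each cell, colour on a log2 scale) in 13 marrow cell classes (rows, with the number of hashtag samples). Ifi203, Mndal, Ifi209 and Aim2 are present in lymphoid and myeloid rows, whereas Ifi207 has a median of 0 in T or NK cells and B lineage cells and 104 CPM in monocytes.

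Across the class means (13 points, which share libraries), the non-member genes most like each member by Pearson r were as follows. Tmem173, which encodes STING, had the highest r with Ifi203 (0.937) and with Mndal (0.941). Pid1 had r = 0.983 with Ifi207, Wfdc17 had r = 0.962 with Ifi204 and Lsr had r = 0.941 with Ifi211. For Ifi209 it was Clock (0.914), and for Aim2 it was Gm2a (0.908). Among the members themselves r over class means was 0.995 between Ifi203 and Mndal and 0.279 between Ifi203 and Ifi204.

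Monocytes were the class in which all 7 members were measured best, in 79 to 1791 cells per sample. The pool moved with the levels of most members. In WBM_4, Ifi203 was 61.5 to 121 CPM, against 134 to 304 CPM in the other 3 pools, and Mndal was 69.9 to 161 CPM against 142 to 294 CPM. Ifi204 was 47.9 to 75.2 CPM in WBM_4, and 68.7 to 279 CPM elsewhere. Aim2 was lowest in WBM_1, with 25.7 to 40.5 CPM, against 36.0 to 64.6 CPM in the other pools. WBM_4 holds HRO and WTO samples alone, and the ranges of Mndal, Ifi204 and Aim2 overlapped between pools. Since pools hold different groups, pool was a term of every main test.

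Across the 19 monocyte samples the 6 members other than Aim2 moved together. Their pairwise Pearson r on log2(CPM + 1) ran from 0.53 (Ifi209 with Mndal) to 0.918 (Ifi203 with Mndal), whereas r with Aim2 ran from -0.181 to 0.343. Among non-member genes, Samd9l had the highest r with Ifi203 (0.950), Mndal (0.948) and Ifi211 (0.885). Samhd1, which cleaves deoxynucleotides, was nearest to Ifi204 (0.936), Slfn5 to Ifi207 (0.929) and Rnf213 to Ifi209 (0.864). The nearest gene to Aim2 was Ppp1r10 (0.762). The samples share pools and depth, so these values describe the samples and carry no p.

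**Figure D2:**
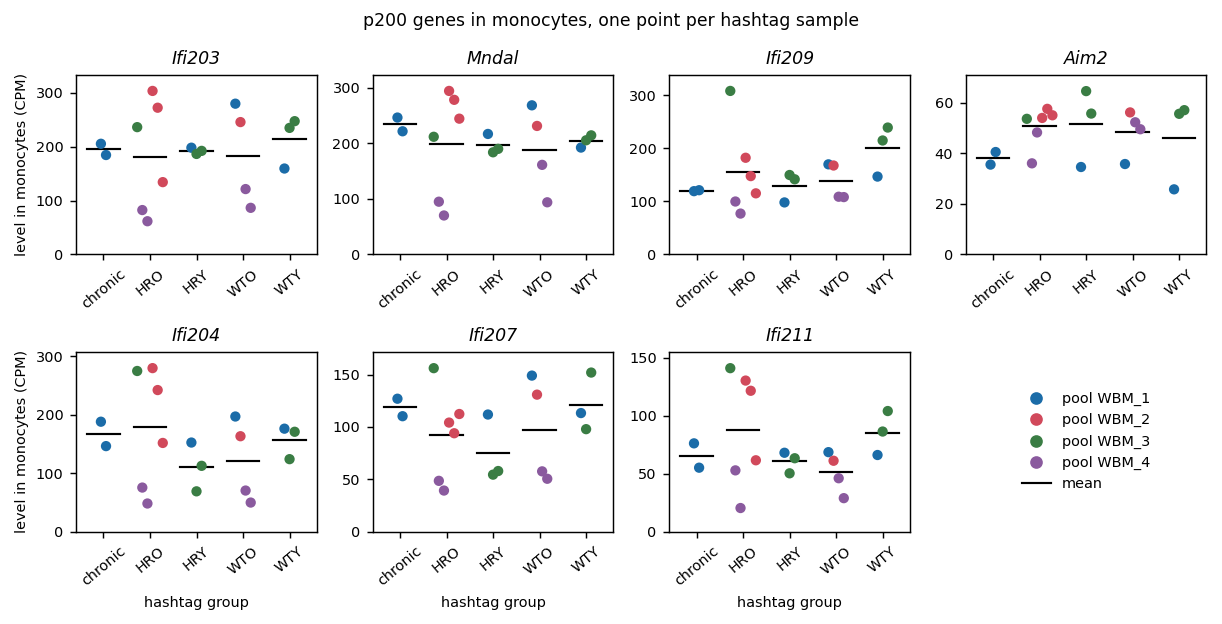
Level of each gene in monocytes (vertical axis, CPM) by hashtag group (horizontal axis), with a point per hashtag sample coloured by pool and a line at the group mean. The purple points of WBM_4 lie low in both HRO and WTO for Ifi203, Mndal, Ifi204, Ifi207 and Ifi211, and HRO.10 (green, in HRO) is the highest sample for Ifi207, Ifi209 and Ifi211.

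HRO samples were set against HRY samples. With pool as a term, Ifi204, Ifi207 and Ifi209 were called higher in HRO monocytes, 3 of the 7 members tested. Over all 10271 genes, 3.71% were called in this comparison and 2.43% in the higher direction. Ifi204 ranged from 47.9 to 279 CPM in HRO samples (median 197), against 152, 68.7 and 112 CPM in HRY.4, HRY.5 and HRY.6. The groups overlapped, since HRO.11 and HRO.12 of the low pool WBM_4 were at 75.2 and 47.9 CPM. The fold with pool as a term was 1.35 ± 0.30 (log2, SE; edgeR quasi-likelihood test, adjusted p = 0.0193). Ifi207 ranged from 39.2 to 156 CPM in HRO samples (median 99.0), against 112, 54.4 and 57.8 CPM in HRY samples, and the groups overlapped as well. Its fold was 1.103 ± 0.25 (edgeR adjusted p = 0.0189). Ifi209 ranged from 76.9 to 308 CPM in HRO samples (median 131), against 98.0, 150 and 142 CPM in HRY samples. The groups overlapped, and the HRO median lay below the HRY median of 142 CPM. With pool as a term the fold of Ifi209 was 1.01 ± 0.19 (edgeR adjusted p = 0.00826).

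Ifi211 had a fold of the same size, 1.14 ± 0.40, and did not pass (edgeR adjusted p = 0.135). It ranged from 20.3 to 141 CPM in HRO samples and was 68.0, 50.3 and 63.3 CPM in HRY samples. Ifi203 (0.34 ± 0.30), Mndal (0.21 ± 0.24) and Aim2 (-0.06 ± 0.18) did not pass either. The median fold of the 7 members was 1.01, beside -0.01 over all genes tested.

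The calls rest on few samples. WBM_3 is the single pool that holds both groups, with HRO.10 against HRY.5 and HRY.6. There Ifi204 was 274 CPM in HRO.10, against 68.7 and 112 CPM in HRY.5 and HRY.6. Ifi207 was 156 CPM in HRO.10, against 54.4 and 57.8 CPM. Ifi209 was 308 CPM in HRO.10, against 150 and 142 CPM, and Ifi211 was 141 CPM, against 50.3 and 63.3 CPM. Without HRO.10 no member passed, with folds of 0.76 for Ifi204, 0.45 for Ifi207 and 0.54 for Ifi209. Without HRY.5 or without HRY.6, 1 member passed, and with no pool term none did. HRO.10 also differed from both HRY samples of its pool in Ddx3y (0.775 CPM against 94.4 and 76.3 CPM), in Isg15 (106 CPM against 5.13 and 12.2 CPM) and in the summed neutrophil RNAs (6238 CPM against 1796 and 2496 CPM). Sex, as Ddx3y marks it, and group cannot be told apart in this pool, and the part of the other values in the result was not tested.

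**Figure D3:**
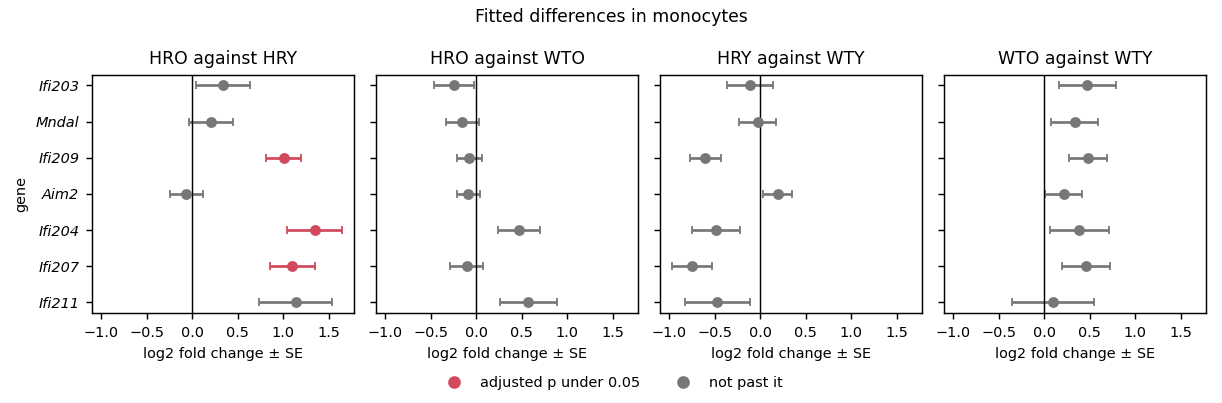
Fitted log2 fold change with its SE (horizontal axis) of the 7 genes (vertical axis) in monocytes for 4 comparisons, with genes past an adjusted p of 0.05 in red. Only the first panel, HRO against HRY, holds red points, at 1.35 for Ifi204, 1.103 for Ifi207 and 1.01 for Ifi209.

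Other genes of the same system were read from 4 lists in this comparison. Of 11 other p200 genes, 5 could be tested and 2 were higher in HRO monocytes, Ifi206 (2.74 ± 0.50, edgeR adjusted p = 0.00553) and Ifi213 (2.58 ± 0.57, edgeR adjusted p = 0.0168). Of 20 genes of DNA sensing and the inflammasome, 19 were tested, 5 were higher and none lower. The Z-nucleic acid sensor Zbp1 (126 ± 63.6 CPM in HRO and 42.9 ± 12.4 CPM in HRY samples, SD) had a fold of 2.34, and Casp4, a protease that senses bacterial lipopolysaccharide in the cytosol, one of 1.73. Irf7, which drives interferon genes, had a fold of 1.69 and Tmem173 one of 0.86. Of 15 genes of interferon signalling, 3 were higher, namely the cytokine-signalling brake Socs3 (4.53), the interferon-signalling brake Usp18 (2.20) and the signal transducer Stat2 (1.096). Irf8, a transcription factor of monocytes and dendritic cells, was lower (-0.76). None of 8 interferon genes had enough counts to be tested. Of the list genes named here, Socs3 alone had groups that did not overlap (20.3 to 54.2 CPM in HRO, against 0.838 to 4.10 CPM in HRY samples). Ifi206 ranged from 0.621 to 42.8 CPM in HRO samples, against 4.10 to 19.6 CPM in HRY samples. Usp18 ranged from 1.24 to 49.2 CPM, against 8.20 to 17.3 CPM, and Irf7 from 9.94 to 108 CPM, against 11.3 to 61.1 CPM. How far these folds rest on HRO.10 was not tested.

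HRO samples were next set against WTO samples. Both occur in pools WBM_2 and WBM_4. In WBM_4 Ddx3y in monocytes was 0.311 and 0 CPM in HRO.11 and HRO.12, against 58.6 and 55.8 CPM in WTO.5 and WTO.6. Sex, as Ddx3y marks it, and group cannot be told apart in that pool, which holds for this contrast in the other classes too. In WBM_2 Ddx3y was 53.4 CPM in HRO.9, and under 1 CPM in HRO.7, HRO.8 and WTO.4. The fit also held HRO.10 of WBM_3 and WTO.3 of WBM_1, so part of each fold runs through other groups in those pools. None of the 7 members passed in monocytes, beside 7.83% of 10271 genes called. At an unadjusted p under 0.05 no member was found, and 2493 genes were. DESeq2 called no member either. Ifi204 ranged from 47.9 to 279 CPM in HRO samples (median 197), against 197, 163, 70.1 and 49.5 CPM in WTO.3, WTO.4, WTO.5 and WTO.6, with a fold of 0.47 ± 0.23 (edgeR adjusted p = 0.225). Ifi211 ranged from 20.3 to 141 CPM in HRO samples (median 91.5), against 68.5, 61.1, 46.0 and 28.8 CPM in WTO samples, with a fold of 0.57 ± 0.31 (edgeR adjusted p = 0.276). The groups overlapped for both genes.

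The HRO samples were not alike. In WBM_2, Ifi211 was 130 and 122 CPM in HRO.7 and HRO.8, and 61.5 CPM in HRO.9, against 61.1 CPM in WTO.4. Ifi204 was 279 and 242 CPM in HRO.7 and HRO.8, and 151 CPM in HRO.9, against 163 CPM in WTO.4. In WBM_4 the levels of Ifi204 were 75.2 and 47.9 CPM in HRO samples, against 70.1 and 49.5 CPM in WTO samples. HRO.7 and HRO.8 are the samples whose monocytes lie in cluster 4. Without HRO.9, Ifi204 (0.57, edgeR adjusted p = 0.0447) and Ifi211 (0.74, adjusted p = 0.0462) passed. Without HRO.7 and HRO.8, Ifi203 passed in the other direction (-0.57, edgeR adjusted p = 0.0168).

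Ifi203 averaged 182 ± 103 CPM in HRO samples and 183 ± 94.0 CPM in WTO samples (SD, n = 6 and 4), with a fitted fold of -0.24 ± 0.22. Mndal averaged 199 ± 94.9 CPM in HRO samples and 188 ± 77.2 CPM in WTO samples, with a fold of -0.15 ± 0.18. Ifi207 (-0.11 ± 0.18) and Ifi209 (-0.08 ± 0.14) were as close to 0. Aim2 averaged 50.8 ± 7.84 CPM in HRO samples and 48.4 ± 8.88 CPM in WTO samples, with a fold of -0.09 (edgeR adjusted p = 0.998). The signs of the folds of Ifi209, Mndal and Aim2 turned when pool was left out of the fit.

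List genes did pass in the same monocytes. Ifi205, 1 of 5 other p200 genes tested, was higher in HRO monocytes (3.56 ± 0.99, edgeR adjusted p = 0.0380), with 57.0 and 53.5 CPM in HRO.7 and HRO.8, 3.11 to 8.91 CPM in the remaining 4 HRO samples, against 0 to 11.9 CPM in WTO samples. That gene shares read-length words with Ifi211. Of 19 genes of DNA sensing and the inflammasome, 6 were higher and none lower. Il1b, the cytokine that inflammasomes mature, had a fold of 1.79, Zbp1 of 1.37, Casp4 of 1.15 and Tmem173 of 0.74. Of 15 genes of interferon signalling, Socs3 (3.23) and the transcription factor Irf1 (1.38) were higher and Irf8 (-0.44) lower. The summed neutrophil RNAs in monocytes were 5832 to 13760 CPM in HRO samples, against 2696 to 28550 CPM in WTO samples, and their part in these values was not tested.

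HRY samples were set against WTY samples, in pools WBM_1 and WBM_3. None of the 7 members passed, beside 0% of 10271 genes, with 620 genes at an unadjusted p under 0.05, 2 of them members, and 1 gene called by DESeq2. In HRY samples Ifi207 was 112, 54.4 and 57.8 CPM, against 113, 97.8 and 152 CPM in WTY samples, with a fold of -0.75 ± 0.22 (edgeR adjusted p = 0.680). Ifi209 was 98.0, 150 and 142 CPM in HRY samples, against 147, 215 and 239 CPM in WTY samples, with a fold of -0.60 ± 0.17 (edgeR adjusted p = 0.680). In WBM_3 Ifi207 was lower in both HRY samples than in both WTY samples. In WBM_1 it was 112 CPM in HRY.4 and 113 CPM in WTY.3. The other 5 members had folds of -0.49 to 0.19.

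WTO samples were set against WTY samples. None of the 7 members passed, again beside 0% of 10271 genes, with 476 genes at an unadjusted p under 0.05, Ifi209 among them, and 5 called by DESeq2. The folds of the members ran from 0.09 (Ifi211) to 0.48 (Ifi209). WBM_1 is the single pool with both groups, and Ifi203 there was 280 CPM in WTO.3, against 160 CPM in WTY.3.

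The difference of the HRO over WTO and the HRY over WTY folds was itself tested, and no member passed, beside 0.925% of 10271 genes called and 1231 at an unadjusted p under 0.05. It was 0.96 ± 0.36 for Ifi204 (edgeR adjusted p = 0.273), 1.05 ± 0.47 for Ifi211, 0.65 ± 0.29 for Ifi207 and 0.53 ± 0.22 for Ifi209, against -0.13 ± 0.33 for Ifi203, -0.12 ± 0.28 for Mndal and -0.28 for Aim2. HRO against HRY and chronic against HRO share HRO samples with HRO against WTO, and HRO against HRY shares HRY samples with HRY against WTY, so their values stand side by side and do not count as separate evidence.

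The chronic samples were set against HRO samples, with which they share no pool. No member passed in monocytes, beside 0.0389% of 10271 genes called and 1120 at an unadjusted p under 0.05. Ifi204 was 188 and 146 CPM in the chronic samples, against 47.9 to 279 CPM in HRO samples, with a fold of -0.99 ± 0.39 (edgeR adjusted p = 0.342). Within WBM_1 it was 188 and 146 CPM in the chronic samples, against 152 CPM in HRY.4, 197 CPM in WTO.3 and 176 CPM in WTY.3. Ifi209 was 119 and 121 CPM in the chronic samples, against 76.9 to 308 CPM in HRO samples, with a fold of -0.59 ± 0.25 (edgeR adjusted p = 0.405). Mndal differed least (0.00 ± 0.30). In mature neutrophils none of the 5 members tested passed, beside 0.015% of 6676 genes called, and Ifi204 was 34.5 and 16.5 CPM in the chronic samples, against 55.5 CPM in HRY.4, 15.6 CPM in WTO.3 and 24.3 CPM in WTY.3 of the same pool.

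Mature neutrophils were compared next, since Ifi204 is the member whose medians in mature and immature neutrophils lie furthest apart. Ifi204 was 515 and 492 CPM in HRO.7 and HRO.8, and 115, 38.98, 38.3 and 29.9 CPM in HRO.10, HRO.9, HRO.11 and HRO.12, against 15.6 to 70.7 CPM in the 4 WTO samples. HRO.7 and HRO.8 thus stood above all other samples. HRO.10, of a pool with no WTO sample, lay above the 4 WTO samples as well, and HRO.9, HRO.11 and HRO.12 overlapped with them. Different clusters hold this class, and in WBM_2 91.2% and 85.4% of the mature neutrophils of HRO.7 and HRO.8 lay in cluster 3, with 61.0% in HRO.9, against 0.453% in WTO.4, most of whose cells lay in clusters 0 and 10. In WBM_4 cluster 3 held 93.1% and 97.3% in HRO.11 and HRO.12, against 76.1% and 81.5% in WTO.5 and WTO.6. The fold was 1.11 ± 0.64 and did not pass (edgeR adjusted p = 0.569). None of the 5 members tested passed, beside 1.18% of 6676 genes called. The counts rest on 260 and 144 mature neutrophils in HRO.7 and HRO.8, against 374 to 734 in the other HRO samples. In monocytes of HRO.7 and HRO.8 Ifi204 was lower than in their mature neutrophils, at 279 and 242 CPM. The same held for HRY.5, with 68.7 CPM in monocytes and 93.9 CPM in mature neutrophils. At an unadjusted p under 0.05 there were 754 genes, and the single member among them was Mndal (0.94 ± 0.43), with 3.05 to 25.9 CPM in HRO samples, against 2.04 to 7.82 CPM in WTO samples. Ifi207 and Ifi211 had too few counts to be tested. Zbp1 was the single list gene that passed (2.29 ± 0.46, higher in HRO).

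In immature neutrophils all 7 members were low, and 4 could be tested. None passed, beside 2.15% of 9288 genes called. Ifi204 was 12.2 and 13.3 CPM in HRO.7 and HRO.8, 0.378 to 2.12 CPM in the remaining 4 HRO samples, against 0 to 1.32 CPM in WTO samples, with a fold of 2.25 ± 0.95 (edgeR adjusted p = 0.275). Of the list genes, Zbp1 (3.19), Irf7 (1.88), Casp4 (0.96), Usp18 (2.95) and Irf9 (1.13) were higher in HRO immature neutrophils.

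**Figure D4:**
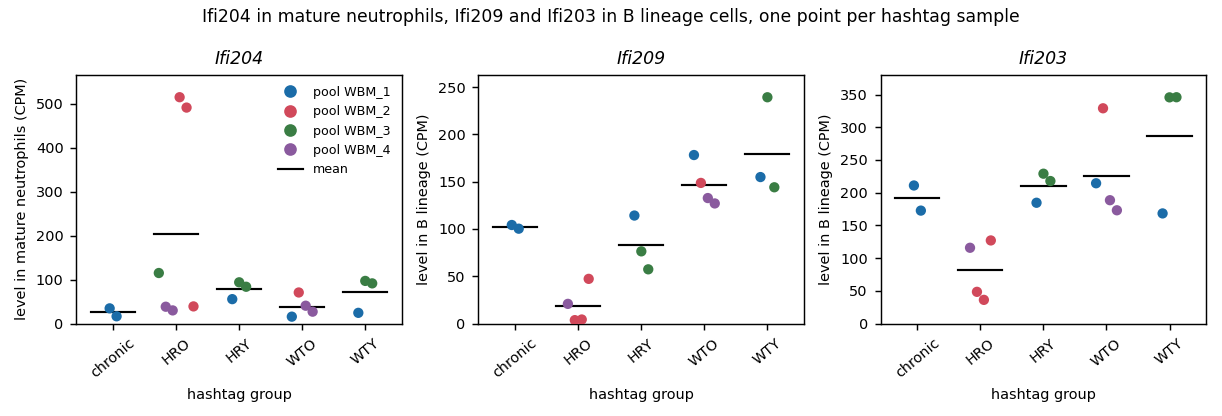
Level (vertical axis, CPM) of Ifi204 in mature neutrophils and of Ifi209 and Ifi203 in B lineage cells by hashtag group (horizontal axis), with a point per hashtag sample coloured by pool and a line at the group mean. In the left panel HRO.7 and HRO.8 lie at 515 and 492 CPM and all other samples at 115 CPM or less. In the other panels HRO.7 and HRO.8 are the lowest points.

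In progenitors no member passed between HRO and WTO samples, beside 0.509% of 9822 genes called, although 3 of the 7 had an unadjusted p under 0.05, as had 1236 of all genes tested. Ifi203 ranged from 27.3 to 178 CPM in HRO samples (median 87.4), against 99.9, 40.2, 19.6 and 25.4 CPM in WTO.3, WTO.4, WTO.5 and WTO.6 (0.96 ± 0.30, edgeR adjusted p = 0.156). Mndal ranged from 39.8 to 158 CPM in HRO samples, against 118, 30.7, 39.9 and 27.1 CPM in WTO samples (0.90 ± 0.29, edgeR adjusted p = 0.177). Aim2 ranged from 27.4 to 38.1 CPM in HRO samples, against 17.8 to 22.4 CPM in WTO samples (0.60 ± 0.18, edgeR adjusted p = 0.142). Without HRO.9, 2 members passed. Both list genes that passed, Irf7 (2.48) and Casp4 (0.92), were higher in HRO. Levels in progenitors also followed the pool. Ifi204 was 12.7 to 31.1 CPM in the 5 samples of WBM_1, against 0 to 5.96 CPM in 14 others, and Ifi209 was 46.5 to 55.8 CPM, against 2.72 to 26.9 CPM. In WBM_1 75.4% to 89.2% of the progenitors lay in cluster 17.

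B lineage cells were the class in which members were called lower, between samples whose cells lay largely in different clusters. Ifi209 and Ifi203 were lower in HRO than in WTO samples, 2 of the 4 members with enough counts, beside 12.7% of 7862 genes called and 5.69% called in the lower direction. Ifi209 was 3.59, 4.26, 47.2 and 20.8 CPM in HRO.7, HRO.8, HRO.9 and HRO.11, against 178, 149, 133 and 127 CPM in WTO.3, WTO.4, WTO.5 and WTO.6. The fold was -3.21 ± 0.61 (edgeR adjusted p = 0.00669). Ifi203 was 48.4, 36.2, 127 and 116 CPM in the same HRO samples, against 214, 329, 189 and 173 CPM in WTO samples (-1.38 ± 0.38, edgeR adjusted p = 0.0303). Mndal (-0.44 ± 0.28) and Aim2 (0.28 ± 0.44) did not pass. Mndal was 92.3, 102, 145 and 215 CPM in HRO samples, against 205, 274, 196 and 207 CPM in WTO samples, and Aim2 was 34.3, 27.7, 88.6 and 75.7 CPM, against 26.5, 66.8, 55.9 and 33.4 CPM.

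The B lineage cells of HRO.7 and HRO.8 fell into a cluster of their own. Of their 393 and 108 cells, 378 and 104 lay in cluster 27, which is led by Ccl22, Fcmr, Cd79a and Shisa8 and holds no cell of another sample. Cd79a, part of the B cell receptor, was 2684 and 2703 CPM in those cells, against 1944 CPM in the B lineage cells of WTO.4. Cluster 27 had a median of 11362 UMIs per cell, against 1027 and 1017 in clusters 15 and 16, which hold the other B lineage cells. The part of this difference in the result was not tested. Without HRO.7 and HRO.8 the HRO group rests on 69 cells of HRO.9 and 44 of HRO.11. Then 1 member passed, and Ifi203 did not (-0.72, edgeR adjusted p = 0.115). These cells differ in their clusters as well, since 73.9% and 90.9% of those of HRO.9 and HRO.11 lay in cluster 15, against 36.5% to 69.6% in the 4 WTO samples, whose other cells lay in cluster 16. Without WTO.4 no member passed, with -2.33 for Ifi209 and -0.33 for Ifi203. Without HRO.7 alone, without HRO.8 alone or without pool WBM_1, 1 member passed. The neutrophil RNA S100a8 in B lineage cells was 402 to 1346 CPM in HRO samples, against 4211 to 12290 CPM in WTO samples, and its part in the result was not tested. Among list genes, Ifi206 (-3.89), Il1b (-2.77), Ifnar1 (-1.20) and Ifngr2 (-1.29), the last 2 being interferon receptor chains, were lower in HRO, and Zbp1 (1.98), Casp4 (1.88) and Irf1 (0.95) higher.

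In T or NK cells none of the 4 members tested passed, beside 0.0239% of 4185 genes called, and no member had an unadjusted p under 0.05 while 437 genes did. Ifi203 ranged from 230 to 660 CPM in HRO samples (median 298), against 270, 504, 199 and 337 CPM in WTO samples, with a fold of -0.28 ± 0.24. Mndal ranged from 210 to 349 CPM in HRO samples, against 257, 359, 186 and 399 CPM in WTO samples. Ifi209 had a fold of -0.49 ± 0.26 (edgeR adjusted p = 0.5263) and Aim2 of 0.81 ± 0.49. No list gene passed in this class.

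Ifi202b, a p200 gene next to Ifi203 that lacks the pyrin domain and is known to oppose Aim2 and to vary between mouse strains, was found almost entirely in 1 sample. It was chosen after its values were seen. In monocytes it was 66.1 CPM in HRO.9 (849 UMIs), 0.0869 CPM in HRO.7 (2 UMIs) and at 0 in the other 17 samples. Over all classes HRO.9 held 939 of its 947 UMIs. Within HRO.9 it was 99.9 CPM in macrophages, 41.5 CPM in conventional dendritic cells and 2.96 CPM in mature neutrophils. In the same sample the ratio of Ifi203 to Mndal in monocytes was 0.550, against 0.753 to 1.16 in the other 18 samples (median 0.997). In T or NK cells of HRO.9 that ratio was 1.09, against 0.730 to 1.92 in the others.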

How the data were processed

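The deposited matrices hold raw UMI counts per gene and barcode, not normalised. Per the file headers they were written by Cell Ranger 3.0.0 (WBM_1) and 3.1.0 (other libraries); the submitters' processing notes name Seurat, bcl2fastq and build mm10 as well. Which gene annotation was used is not given in the sources used here. Hashtags were called by HTODemux (Seurat 5.3.0, quantile 0.99), which the design text names. HTODemux gave 57944 singlets among 78720 barcodes. Singlets below 300 genes (4540), with a mitochondrial share from 10% upward (10368) or repeated between libraries (19) were dropped, and 43024 cells stayed. Cells were clustered with scanpy 1.11.5 and Leiden (leidenalg 0.10.2, resolution 1) without the p200 and interferon genes, and 31 clusters were named from marker lists, forming 13 classes. Doublets were removed by hashtag alone.

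Sums of counts for every class of a hashtag sample (20 cells or more) were tested with edgeR 4.0.16 (R 4.3.3; quasi-likelihood, TMM, filterByExpr, group and pool as terms, Benjamini-Hochberg at 0.05 over all genes tested). SE is the absolute fold over the square root of F. From each list up to 4 genes past the threshold with the largest absolute folds were named. The members and lists were chosen with earlier results of these data known. Alternatives were other scaling, DESeq2 1.42.0, no filter, no pool term, other hashtag scaling, Scrublet scores, resolution 2, interferon genes kept, and samples left out. The test was tried on simulated counts.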

Additional observations from a re-analysis of the deposited data

Results flagged for a closer look

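Of 84 groups of 4 or 6 samples examined, 15 held a sample far from the others, where chance gives about 5%. The groups share samples, pools and genes that moved together, so these numbers do not test for an excess over chance. In monocytes Ifi202b, chosen after its values were seen, stood at 66.1 CPM in HRO.9 among HRO samples. In progenitors WTO.3, the single WTO sample of pool WBM_1, stood above the other WTO samples for Ifi204 (30.3 CPM), Ifi207 (16.1 CPM), Ifi209 (49.9 CPM), Ifi211 (41.0 CPM) and Mndal (118 CPM). HRO.10, the single HRO sample of WBM_3, was the highest HRO sample in progenitors for Ifi209 (26.9 CPM) and Ifi211 (13.4 CPM), on 26 cells, and in T or NK cells for Ifi203 (660 CPM) and Ifi209 (114 CPM). Mndal in B lineage cells was highest in WTO.4 (274 CPM) among WTO samples. The rest were at low counts: Ifi211 in mature neutrophils of WTO.4 (3.35 CPM), Ifi204 in immature neutrophils of WTO.5 (0 CPM, the lowest), Ifi211 in B lineage cells of WTO.3 (2.41 CPM) and Ifi204 in T or NK cells of WTO.4 (14.0 CPM).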

How the results depend on the processing

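Depth limits the low classes: members at a few CPM in neutrophils are read with little precision, and 3 members each in B lineage and in T or NK cells had too few counts to be tested. RLE scaling, DESeq2, hashtag scaling within cells, removal of high Scrublet scores, resolution 2 and keeping interferon genes in the clustering moved no count of members past the threshold. A count within a fixed ratio of the main count was taken as not moved, so small changes are not listed. The level was higher in monocytes than in mature neutrophils for 7 of 7 members under all 4 other ways to form cells and classes. Single samples could go the other way, as Ifi204 did in HRO.7, HRO.8 and HRY.5 with the main classes.

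With no filter on low counts the number of members past the threshold became 2 for HRO against WTO, HRY against WTY and chronic against HRO in monocytes, 2 for the interaction, 2 for HRO against WTO in progenitors, and 1 each in mature and immature neutrophils. With no pool term HRO against HRY had 0. Without HRO.7 and HRO.8 there was 1 for HRO against WTO in monocytes and 1 in B lineage cells. Without pool WBM_1, chosen after seeing the data, there was 1 in B lineage cells. Leaving out each sample in turn gave 0 to 4 for HRO against HRY, 0 to 2 for HRO against WTO in monocytes, progenitors and B lineage cells, 0 to 1 in immature neutrophils and 0 to 1 for the interaction. For HRO against WTO in monocytes the sign turned with no pool term for Ifi209 (0.0938), Mndal (0.0309) and Aim2 (0.0211), without HRO.12 for Ifi209 (0.0217) and Mndal (0.00301), without WTO.5 for Mndal (0.0966) and without HRO.11 for Aim2 (0.0076). The cause was not tested.

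Whether hashtag numbers shared by groups pair the samples could not be told, since most same-numbered samples lay in different pools. Same-numbered samples had deviations from group means correlated at -0.758 to 0.716 (8 pairs), and other pairs at -0.803 to 0.849 (25). The value of 0.849 was that of HRY.4 with WTY.3, which share a pool. The value of 0.716 among same-numbered samples was that of HRY.5 with WTY.5, which share a pool as well. With the number as replicate block in place of pool, 0 members passed for HRY against WTY and 0 for WTO against WTY.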

Other observations

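2 samples stood in no group. HR.7, of pool WBM_3, had 895 monocytes, in which Ifi203 was 150 CPM, Mndal 142 CPM, Ifi204 123 CPM, Ifi209 166 CPM, Ifi207 78.9 CPM, Ifi211 63.1 CPM and Aim2 59.1 CPM. In its nonclassical monocytes Ifi204 was 184 CPM and in its T or NK cells 4.17 CPM. HR.AE, of pool WBM_2, held 1398 basophils or mast cells and too few cells of any other class. There Aim2 was 69.7 CPM, Mndal 83.1 CPM and Ifi203 32.4 CPM, and Ifi204, Ifi209 and Ifi211 were each under 1 CPM.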
